A study of Mus musculus with 2 samples.

Results

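Chromatin-modifying and DNA methylation enzymes are the proteins that write and remove acetyl and methyl groups on histones and methyl groups on DNA. They were taken as the protein-coding genes of the deposited count table whose symbols belong to the histone deacetylase (Hdac), sirtuin (Sirt), lysine demethylase (Kdm), lysine acetyltransferase (Kat, Ep300, Crebbp), lysine methyltransferase (Kmt2, Setd, Suv39h, Suv420h, Ehmt, Ezh with Eed and Suz12, Dot1l), arginine methyltransferase (Prmt), DNA methyltransferase (Dnmt) and TET dioxygenase (Tet) families. The rule used names only and no measured value, but the set was chosen with earlier results of these data known. It found 87 of the 35275 genes in the table. Of these, 82 had at least 50 reads over both libraries and were counted as measured. The other 5 were Hdac9 (7 reads in the effector and 0 in the exhausted library), Hdac11 (0 and 7), Kdm4d (1 and 0), Dnmt3l (1 and 0) and Prmt8 (0 in each, which allows up to 3 reads).

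Acetyl groups on histone tails, placed by acetyltransferases and taken off by deacetylases, are found at active promoters and enhancers. Methyl groups on histone lysines act by position: those on H3K4 mark active genes, while those on H3K27, placed by the Polycomb complex PRC2, and on H3K9 mark silent ones (the name gives the histone, then the amino acid). DNA methyltransferases place methyl groups on cytosines, and TET enzymes oxidise them as a step towards their removal. In T cells these enzymes take part in fixing the effector, memory and exhausted states, and Dnmt3a and Tet2 are among the best-studied members there.

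The cells were TEa cells, CD4 T cells of C57BL/6 background that carry a transgenic T cell receptor specific for an I-E alpha peptide, which BALB/c mice make and C57BL/6 mice lack. The effector group came from wild-type C57BL/6 recipients of a BALB/c skin transplant, a moderate source of that antigen in the submitters' description. The exhausted group came from CB6F1 recipients, hybrids of both strains whose own tissues hold the antigen in abundance, with no graft in the label. Both groups were sorted from spleen after adoptive transfer and sequenced as 1 library each, so recipient strain, graft and amount of antigen cannot be told apart, and no ratio has a replicate check. The time after transfer and the number of animals per library are not given in the labels. Intervals are exact 95% intervals of the read counts. They cover counting error only, and PCR copies can make them too narrow. A gene is called higher or lower where the ratio of exhausted to effector, after scaling for library size, was at least 2-fold and its interval excluded equality.

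The effector library held 7844445 reads and the exhausted library 8508129. The 10 T cell markers had many reads in both, 108501 and 109845 in sum, with 5 above and 5 below equality. Cd3e had 7624 and 11432 reads and Cd4 9272 and 15463, while Trac with 22526 and 11561 and Thy1 with 835 and 372 were called lower. Markers of other cells varied. The B cell marker Ms4a1 had 0 reads in each library, and the dendritic cell list had 39 in each. Of the CD8 chains Cd8a had 0 in each and Cd8b1 had 164 and 81. The macrophage and monocyte list had 91 and 213 reads, of which Itgam, an integrin gene also active in some lymphocytes, made up 22 and 183. The neutrophil list had 164 and 73 and the erythroid list 108 and 13. The NK cell list had 1323 and 629, mostly Nkg7 with 1244 and 396, a gene that T cells also use, while Klrb1c in the same list had 36 and 229. The plasma cell list had 864 and 1695, of which Xbp1, active in many cell types, made up 817 and 1673 and Igj 47 and 20. Ighm had 7540 and 3851 reads although the other B cell markers had at most 18. The part of these differences in the enzyme values was not tested.

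Promoters are shown first for the TET family, whose members had ratios on both sides of equality, and for Dnmt3b and Hdac5, which rose. Each run is the 250 bases before a RefSeq start in build GRCm38.p6, written 5′ to 3′ along the gene. Capitals mark the GC box GGGCGG, a letter pattern bound by Sp1-type factors, read on either strand, and in Hdac5 also a form of the MEF2 element.
Tet1 (chr10:62887325-62887574, minus strand): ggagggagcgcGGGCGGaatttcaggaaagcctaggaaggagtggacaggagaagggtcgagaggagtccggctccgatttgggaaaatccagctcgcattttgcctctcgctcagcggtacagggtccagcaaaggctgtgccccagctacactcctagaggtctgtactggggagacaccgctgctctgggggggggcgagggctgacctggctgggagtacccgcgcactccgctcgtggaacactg
Tet2 (chr3:133544391-133544640, minus strand): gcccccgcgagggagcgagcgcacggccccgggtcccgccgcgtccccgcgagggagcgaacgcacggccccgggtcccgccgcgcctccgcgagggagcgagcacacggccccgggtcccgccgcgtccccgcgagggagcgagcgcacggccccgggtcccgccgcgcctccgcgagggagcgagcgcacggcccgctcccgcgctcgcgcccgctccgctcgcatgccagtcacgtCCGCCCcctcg
Tet3 (chr6:83441679-83441928, minus strand): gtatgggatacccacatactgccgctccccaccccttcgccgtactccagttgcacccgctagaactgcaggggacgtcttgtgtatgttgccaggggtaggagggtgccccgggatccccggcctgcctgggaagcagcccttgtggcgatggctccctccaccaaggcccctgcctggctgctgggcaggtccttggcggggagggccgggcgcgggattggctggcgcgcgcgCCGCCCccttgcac
Dnmt3b (chr2:153649199-153649448, plus strand): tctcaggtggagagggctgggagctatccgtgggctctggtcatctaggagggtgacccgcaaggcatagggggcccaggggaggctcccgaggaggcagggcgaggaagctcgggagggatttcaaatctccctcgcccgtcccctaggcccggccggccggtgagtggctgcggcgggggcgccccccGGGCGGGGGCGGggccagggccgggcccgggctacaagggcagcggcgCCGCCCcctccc
Hdac5 (chr11:102230173-102230422, minus strand): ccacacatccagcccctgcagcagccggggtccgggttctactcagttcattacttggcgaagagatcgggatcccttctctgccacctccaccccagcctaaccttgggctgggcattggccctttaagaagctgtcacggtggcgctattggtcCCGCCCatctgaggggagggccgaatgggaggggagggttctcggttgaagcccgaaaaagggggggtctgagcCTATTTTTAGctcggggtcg

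These windows differed in CpG content, the dinucleotide that DNMT and TET enzymes act on. Tet2 had 51 CpGs in its 250 bases, Dnmt3b 21, Tet3 17, Tet1 15 and Hdac5 12. The GC box occurred 3 times in Dnmt3b and 1 time in each of the other 4. The printed starts lie 11794 bases inside the table's edge of the gene for Tet1 and 17406 for Tet3, so these genes have further start sites. Of the 87 members 75 matched a RefSeq window, with 104 windows between them, and 62.5% of these windows held a GC box. The share was 59.6% over 9388 windows of measured protein-coding genes and 32.7% over all 32851 windows. The median CpG count was 17 for the enzymes and 16 for measured protein-coding genes. The letters of that MEF2 form, also read on both strands, were found in 1 of the members' windows, that of Hdac5 (0.962%), and in 0.0746% of the windows of measured protein-coding genes. This contrast rests on 1 window, that of a gene shown after its values were seen. Other letter patterns were also searched. The E-box CACGTG was in 9.62% of the members' windows and CCAAT in 38.5%. In windows of measured protein-coding genes the shares were 8.75% and 35.8%. A match of letters describes the window and shows no binding. Promoters of the enzymes were therefore rich in CpG and GC boxes to about the degree seen in other measured genes.

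Most of the enzymes differed little between the libraries. Of the 82 measured members 5 were higher in the exhausted library (6.10%), 2 were lower (2.44%) and 75 were neither, so that 8.54% were called. Over all 9999 measured genes 13.7% were called, 6.65% higher and 7.07% lower. The called share of the enzymes was thus below that of all genes, with higher calls near the background and lower calls under it. The higher genes were Hdac7, Hdac5, Dnmt3b, Kdm2b and Setd1b, and the lower ones were Tet1 and Sirt4. Ratios stayed within 1.5-fold in 62 of the 82 (75.6%, against 72.2% of all genes). The direction was uneven: the ratio was above 1 in 53 of 82 (64.6%), while 49.8% of all genes were above 1. Among the 75 members without a call it was above 1 in 48. Between 1.5-fold and 2-fold lay 12 members on the higher side (Setd5, Ep300, Tet2, Hdac4, Kdm6b, Kmt2b, Kdm2a, Kmt2d, Hdac10, Kat6b, Kmt2a and Prmt3) and only Kdm8 on the lower side. The median log2 ratio was 0.17 for the members and -0.002 for all genes. Of the members nearest the line, Setd1b lay inside it at 2.11-fold, and Setd5 and Ep300 lay outside it at 1.96-fold and 1.95-fold.

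**Figure D1:**
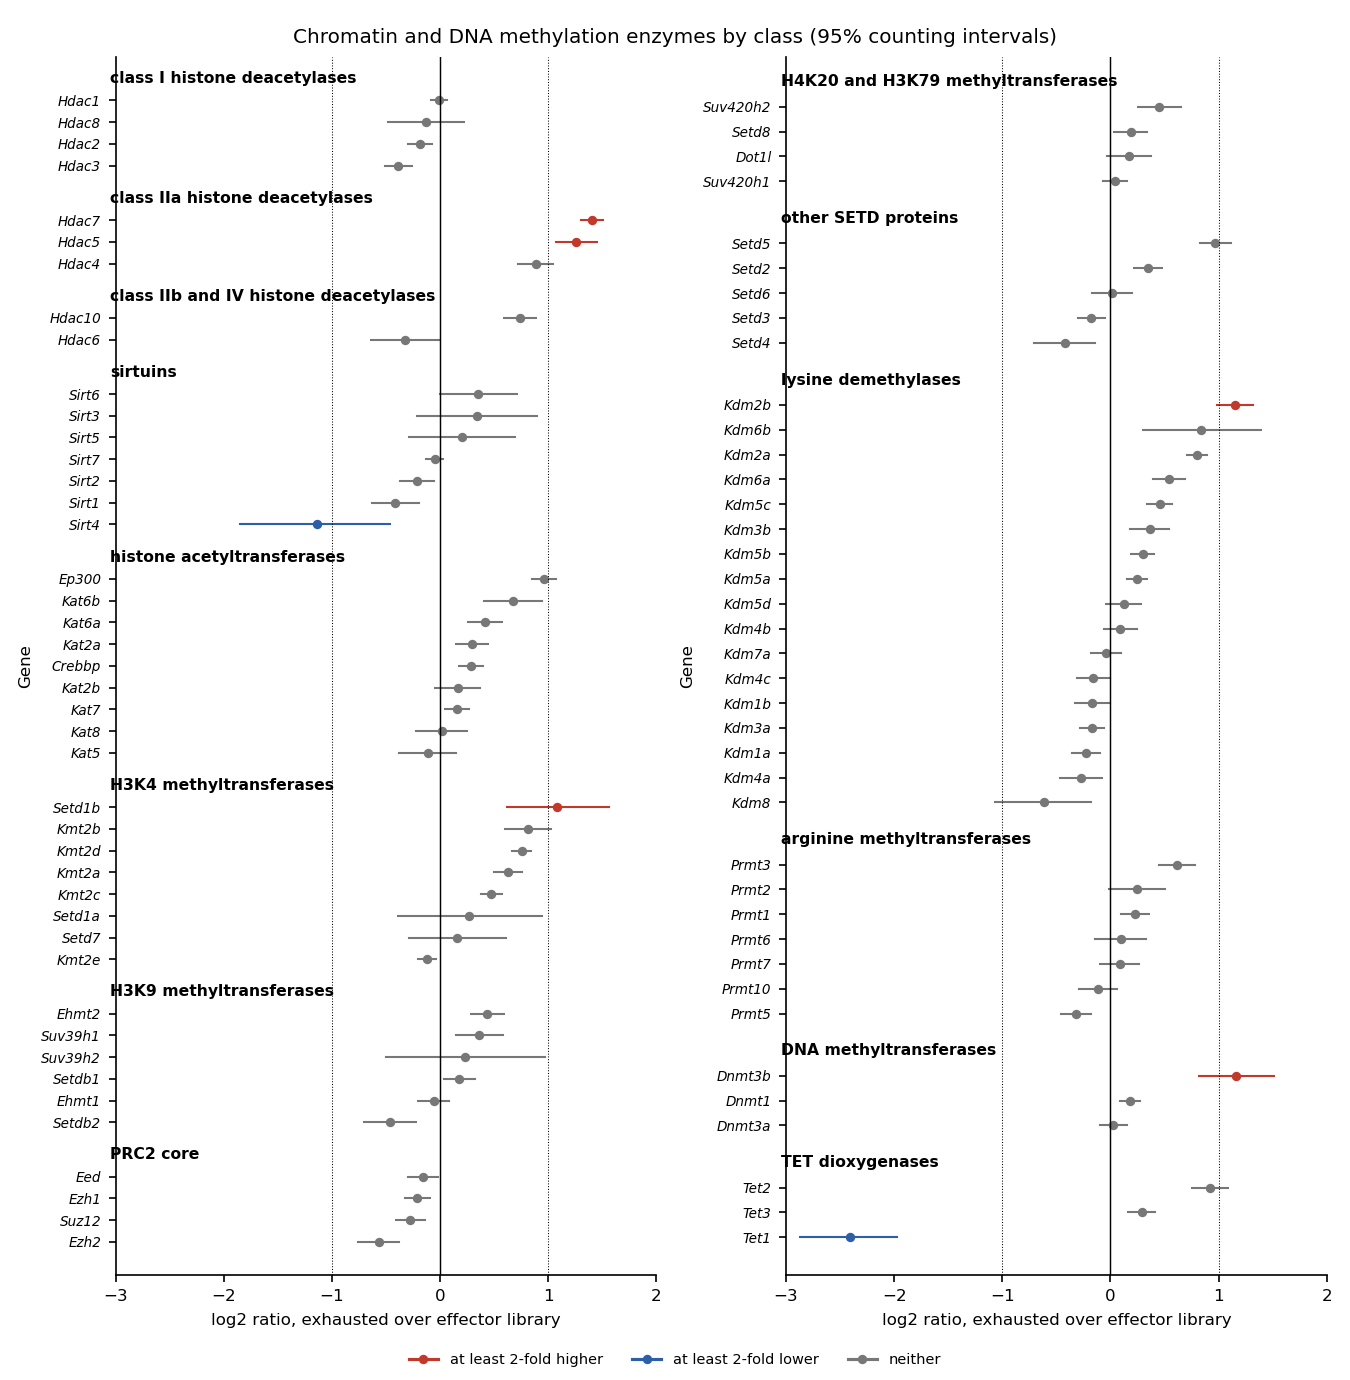
Log2 ratio of exhausted over effector (horizontal axis) for the 82 measured enzymes (vertical axis), grouped by class. Points are ratios of scaled counts, bars are 95% counting intervals and dotted lines mark 2-fold. The class IIa deacetylases stand to the right as a group, the PRC2 core genes to the left of equality, and Tet1 is farthest left at -2.41.

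Levels per gene length were similar in order between the libraries, with some large changes of rank. Expressed as reads per kilobase of gene length and 1000000 library reads, the levels of the 82 genes correlated between the libraries with a Spearman coefficient of 0.94. This is across genes, which share their length and sequence in both libraries and are not independent replicates. Hdac7 went from rank 17 to rank 3, Kdm2b from 56 to 31 and Hdac5 from 65 to 42, while Ezh2 went from 21 to 40. Hdac1 had the highest level in each library, at 189.6 and 188.3, and Sirt7 was next at 100.2 and 96.8. The median level was 14.0 in the effector and 17.6 in the exhausted library. Together the enzymes took 0.739% of the effector reads (57990) and 0.869% of the exhausted reads (73899), a ratio of 1.18 (1.17 to 1.19). In bulk RNA a lower level in every cell and fewer cells that express a gene cannot be told apart.

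Histone deacetylases split by class. Class IIa enzymes, which shuttle between cytoplasm and nucleus under signals and bind MEF2 factors, had higher values in the exhausted library in all 3 measured members. Hdac7, the class IIa enzyme best known from developing T cells (ENSMUSG00000022475, mm10 chr15:97792664-97844502), had 1108 reads in the effector and 3170 in the exhausted library. This was a rise of 2.64-fold (2.47 to 2.83), with a level per length going from 33.4 to 88.3. Hdac5 (ENSMUSG00000008855, chr11:102194432-102230166) had 311 and 806 reads and rose 2.40-fold (2.10 to 2.74). The intervals of both lay wholly beyond 2-fold. Hdac4 had 485 and 968 reads, and its ratio of 1.85 (1.65 to 2.06) did not reach the line. Summed over the class the ratio was 2.39 (2.27 to 2.52). Hdac9, the remaining class IIa gene, was near 0 in each library.

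Class I enzymes, the nuclear deacetylases of the large corepressor complexes, were level or slightly lower, with 0 of 4 above equality. Hdac1 had 3036 and 3260 reads (ratio 0.993, 0.945 to 1.04). Its close partner Hdac2 had 1262 and 1200 (0.879, 0.812 to 0.952). Hdac3, which also acts in corepressor complexes, had 1159 and 958 (0.764, 0.701 to 0.833). Hdac8 had 139 and 137, with an interval that included equality. Summed over the class the ratio was 0.918 (0.884 to 0.953). Its interval does not overlap that of class IIa. Of all Hdac reads, class IIa thus made up 23.0% in the effector library (1911 of 8293, 22.1 to 24.0%) and 42.1% in the exhausted library (4944 of 11752, 41.2 to 43.0%). Class I went from 67.5% (66.5 to 68.5%) to 47.3% (46.4 to 48.2%). Hdac7 alone moved from 13.4% to 27.0% and came close to Hdac1 at 27.7%. Among the rest, the class IIb enzyme Hdac10, known as a polyamine deacetylase, had 602 and 1087 reads (1.67, 1.51 to 1.85). Hdac6, the tubulin deacetylase, had 184 and 159 (0.799, 0.642 to 0.993).

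**Figure D2:**
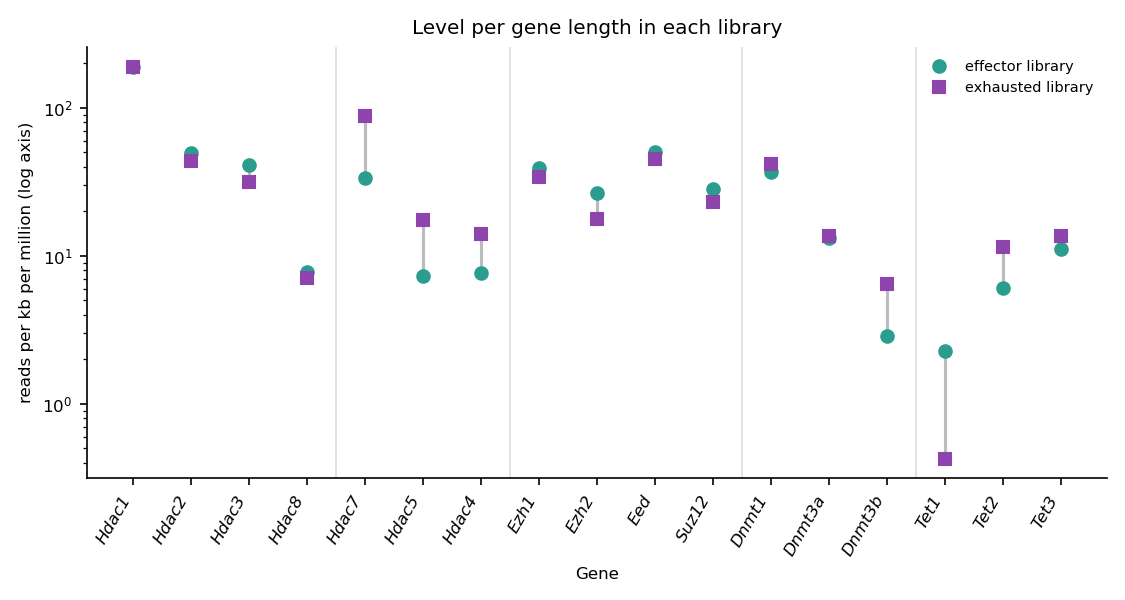
Level in reads per kilobase of gene length, scaled for library size (vertical log axis) of 17 deacetylase, PRC2, DNA methyltransferase and TET genes (horizontal axis), with 1 point per library and a line joining both. The 3 class IIa genes, Dnmt3b and Tet2 are drawn higher in the exhausted library, and Tet1 falls from 2.27 to 0.426.

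Sirtuins, the NAD-dependent deacylases, showed no shared direction, with 3 of 7 above equality and a median log2 ratio of -0.05. Sirt4, a mitochondrial sirtuin (ENSMUSG00000029524, chr5:115478010-115484725), was the called member. It had 57 and 28 reads, a fall of 2.20-fold (1.38 to 3.60), and these low counts leave an interval that reaches well inside 2-fold. Sirt1, the nuclear sirtuin that deacetylates histones and transcription factors, had 389 and 316 (0.751, 0.645 to 0.873). Sirt2, mainly cytoplasmic, had 714 and 666 (0.862, 0.775 to 0.960). The mitochondrial sirtuins Sirt3, with 49 and 67 reads, and Sirt5, with 66 and 82, had intervals that included equality. Sirt7, a nucleolar sirtuin, was the most abundant of the family, with 2576 and 2692 reads (0.966, 0.915 to 1.02).

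Histone acetyltransferases were above equality in 8 of 9 members, but none passed the line (median log2 ratio 0.28). The largest ratio was that of Ep300, which encodes the p300 coactivator. It had 970 and 2045 reads (1.95, 1.80 to 2.11). Its paralogue Crebbp, which encodes CBP, had 1169 and 1537 (1.22, 1.13 to 1.31). Ep300 therefore went from 45.4% (43.2 to 47.5%) to 57.1% (55.5 to 58.7%) of the reads of this pair, and the order of the paralogues by reads turned. Adjusted for gene length, the ratios were 1.62 for Ep300 and 1.01 for Crebbp. Kat2a, the GCN5 enzyme of the SAGA complex, had 654 and 866 reads (1.22, 1.10 to 1.36), and its paralogue Kat2b had 349 and 423 (1.12, 0.970 to 1.29). Kat7, the HBO1 enzyme tied to replication origins and H3K14 acetylation, had the highest level of the class, with 1230 and 1486 reads (1.12, 1.03 to 1.21). Kat6b had 183 and 315 (1.59, 1.32 to 1.92).

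H3K4 methyltransferases leaned the same way, with 7 of 8 above equality and a median log2 ratio of 0.55. They are long genes, with a median of 8066 bases, and all measured genes of 7000 to 10000 bases had a median log2 ratio of 0.26. Setd1b, the catalytic subunit of a COMPASS complex (ENSMUSG00000038384, chr5:123142193-123167435), had 56 and 128 reads and was called at 2.11-fold (1.53 to 2.95). The call was lost at 1.76-fold after adjustment for gene length and at 1.96-fold after adjustment for GC content. Its paralogue Setd1a had 36 and 47 reads and an interval of 0.765 to 1.92. In GENCODE M21 51.85% of the Setd1a exon bases overlap Gm49388 on the same strand, so its count is uncertain. Kmt2a, the MLL1 enzyme, had 789 and 1316 reads (1.54, 1.41 to 1.69), and its paralogue Kmt2b had 280 and 531 (1.75, 1.51 to 2.03). The enhancer methyltransferase Kmt2d had 1579 and 2879 (1.69, 1.58 to 1.79), and its paralogue Kmt2c 1417 and 2126 (1.39, 1.30 to 1.48). Kmt2e, whose protein is not known as an active methyltransferase, was the exception with 2312 and 2305 (0.922, 0.870 to 0.977) and had the highest level of the class.

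The core of PRC2, which methylates H3K27, was below equality in 4 of 4 genes without a call, with a summed ratio of 0.832 (0.794 to 0.873). Ezh2, its catalytic subunit in dividing cells, had 550 and 401 reads and a ratio of 0.674 (0.591 to 0.768). The alternative catalytic subunit Ezh1 had 1301 and 1217 (0.865, 0.799 to 0.936) and outnumbered Ezh2 in each library. The share of Ezh2 in the reads of this pair was 29.7% (27.6 to 31.9%) in the effector and 24.8% (22.7 to 27.0%) in the exhausted library. The scaffold gene Suz12 had 966 and 862 reads (0.825, 0.752 to 0.905), and Eed, whose protein binds the H3K27 mark, had 818 and 793 (0.896, 0.812 to 0.989). Eed had the highest level per length of the class, at 50.4 and 45.2.

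H3K9 methyltransferases were mixed, with 4 of 6 above equality and none called. Suv39h1, which serves constitutive heterochromatin, had 296 and 412 reads (1.29, 1.11 to 1.499). Its paralogue Suv39h2 had 30 and 38 and its share of the pair did not move beyond counting error. The G9a gene Ehmt2 had 605 and 885 (1.35, 1.22 to 1.502), whereas its partner Ehmt1, the GLP gene, had 811 and 841 (0.959, 0.869 to 1.06). Setdb1, the enzyme recruited to silence retroelements, had 721 and 881 (1.13, 1.02 to 1.25), and Setdb2 had 329 and 258 (0.725, 0.614 to 0.856). The 4 genes for H4K20 and H3K79 methylation were all above equality, with ratios of 1.03 to 1.37. Among them Setd8, which places the first H4K20 methyl group, had 629 and 774 reads, and Dot1l, the H3K79 enzyme, had 362 and 441. The intervals of Dot1l and Suv420h1 included equality, and those of Setd8 and Suv420h2 did not. Adjusted for gene length, the ratio of Dot1l was 0.936. Of the other SETD genes, Setd5 had 591 and 1250 reads (1.96, 1.77 to 2.16), the H3K36 enzyme Setd2 857 and 1181 (1.27, 1.17 to 1.39) and the actin histidine methyltransferase Setd3 1049 and 1004 (0.885, 0.811 to 0.966).

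Lysine demethylases were 10 above and 7 below equality, with a median log2 ratio of 0.12. Kdm2b (ENSMUSG00000029475, chr5:122870668-123015080), a CpG-binding H3K36 demethylase that also brings a PRC1 complex to CpG islands, was the called gene. It had 420 and 1011 reads and rose 2.23-fold (1.98 to 2.50). In GENCODE M21 5.77% of its exon bases overlap Rnf34 on the other strand, which had 454 and 346 reads, and 1.83% overlap A930024E05Rik, also on the other strand, which had 47 and 119. Its paralogue Kdm2a had 1357 and 2555 reads (1.74, 1.63 to 1.86). Both H3K27 demethylases were above equality. Kdm6a had 617 and 973 (1.46, 1.32 to 1.62), and the scarce Kdm6b had 45 and 87 (1.79, 1.23 to 2.62). At the other end stood Kdm8 with 105 and 74 reads (1.53-fold lower, 1.13 to 2.10). The LSD1 gene Kdm1a, the class member with the highest level in each library, had 1032 and 955 (0.856, 0.783 to 0.935).

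The X-linked H3K4 demethylase Kdm5c had 1037 and 1540 reads (1.37, 1.27 to 1.49), and its Y-linked counterpart Kdm5d had 560 and 659 (1.09, 0.971 to 1.22). The Y-linked genes Ddx3y, Eif2s3y and Uty were also present in each library, Uty with 568 and 628 reads, and Xist had 0 and 1. Arginine methyltransferases had 5 of 7 above equality and no call. The main asymmetric enzyme Prmt1 had 838 and 1060 reads (1.17, 1.07 to 1.28) and the symmetric enzyme Prmt5 had 895 and 775 (0.801, 0.726 to 0.882). Prmt3, a ribosome-linked enzyme, had 481 and 797 (1.53, 1.37 to 1.72).

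DNA methyltransferases and TET enzymes held the largest difference of the set. Dnmt1, which copies methylation after replication, had 1699 and 2080 reads (1.13, 1.06 to 1.21). The de novo enzyme Dnmt3a had 1008 and 1111 (1.02, 0.935 to 1.11). Neither reached 1.5-fold. Dnmt3b, the other de novo enzyme (ENSMUSG00000027478, chr2:153649450-153687730), had 98 and 237 reads and rose 2.24-fold (1.76 to 2.86), from a level per length of 2.89 to 6.46. Dnmt3a stayed above it at 13.3 and 13.5. The share of Dnmt3b in the reads of this pair was 8.86% (7.25 to 10.7%) in the effector and 17.6% (15.6 to 19.7%) in the exhausted library.

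Tet1 (ENSMUSG00000047146, chr10:62804570-62899118) had 256 reads in the effector and 52 in the exhausted library. It fell 5.33-fold (3.94 to 7.32), the smallest ratio of all 82 members, and its whole interval lay beyond 2-fold. Its paralogues had ratios on the other side. Tet2 had 435 and 892 reads (1.90, 1.69 to 2.13), and Tet3 had 950 and 1255 (1.22, 1.12 to 1.33). Of the reads of the 3 genes Tet1 made up 15.6% (13.9 to 17.5%) in the effector and 2.37% (1.77 to 3.09%) in the exhausted library. Tet2 went from 26.5% (24.4 to 28.7%) to 40.6% (38.5 to 42.7%), and Tet3 stayed the main member at 57.9% (55.5 to 60.3%) and 57.1% (54.97 to 59.2%). Summed TET reads were 1641 and 2199, so the total was 1.24-fold higher (1.16 to 1.32) in the library where Tet1 was low. All measured genes above 10000 bases, the range of Tet1 and Tet3, had a median log2 ratio of 0.37, where Tet3 had 0.29 and Tet1 -2.41. Those of 7000 to 10000 bases had 0.26, where Tet2 had 0.92. The part of gene length in the TET values was not tested.

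**Figure D3:**
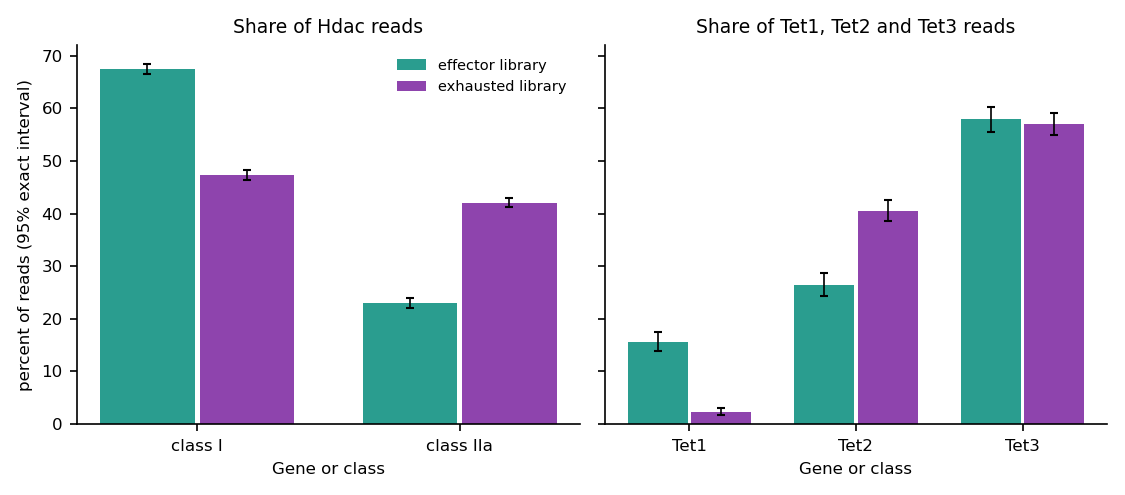
Share of reads in percent (vertical axis) taken by class I and class IIa genes among all Hdac reads (left) and by each gene among Tet1, Tet2 and Tet3 reads (right). Bars are the 2 libraries and error bars exact 95% intervals: class IIa goes from 23.0% to 42.1%, Tet1 from 15.6% to 2.37%, and the Tet3 intervals overlap.

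Genes that work with the enzymes but lie outside the name rule, and cell cycle genes, were read from 11 lists, besides a list of sex chromosome genes. Over 10 of the lists, without that of the corepressor complexes, 6 of 116 measured genes were called (5.17%), where 13.7% of all genes were. This share depends on the lists counted. The corepressor list left out had 1 higher and 1 lower of 20 measured genes. The S phase and mitosis lists, with 14 and 12 measured genes and none called, were counted although they hold cell cycle genes. In PRC2 accessory genes 1 of 7 measured was higher. This was Jarid2, which recruits PRC2, with 1187 and 3001 reads (2.34, 2.18 to 2.50), or 1.94-fold after adjustment for gene length, which ends the call. The PRC1 list had 1 higher and 1 lower of 17. Cbx6, a chromodomain subunit, had 184 and 691 reads (3.47, 2.95 to 4.11). Pcgf1, the subunit of the PRC1 complex that Kdm2b brings to CpG islands, had 191 and 88 and fell 2.35-fold (1.81 to 3.06). Kdm2b and Pcgf1 thus moved in opposite directions.

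In the list of deacetylase corepressor complexes Mta3, a NuRD subunit, had 750 and 383 and fell 2.12-fold (1.87 to 2.40). The coactivator Ncoa3 had 1712 and 3965 reads (2.14, 2.02 to 2.27; 1.78 adjusted for length) and was the called gene of 13 acetyltransferases and acetyl-lysine readers. Setmar, a methyltransferase joined to a transposase domain, had 60 and 22 and fell 2.95-fold (1.78 to 5.05), the called gene of 11 further methyltransferases. H3K4 complex partners (11 measured), further demethylases (5) and SWI/SNF remodelling genes (16) had none called.

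Among 10 measured DNA methylation partners and readers, Cxxc5 was called. Its protein is a CXXC zinc finger protein that binds CpG DNA and has been tied to Tet2. It had 10 reads in the effector and 282 in the exhausted library, a rise of 26.1-fold (14.0 to 54.96). Uhrf1, which guides Dnmt1 to replicated DNA, had 428 and 642 (1.39, 1.23 to 1.57). Tdg, the glycosylase that removes the bases TET enzymes oxidise, had 629 and 421 (1.62-fold lower, 1.43 to 1.83). S phase genes, with which Dnmt1, Uhrf1 and Ezh2 often move, were above equality in 13 of 14 (median log2 ratio 0.54) with none called. Here Ezh2 lay on the other side with a ratio of 0.674 (0.591 to 0.768), and Dnmt1 had 1.13 (1.06 to 1.21). The median of 12 mitosis genes was 0.01. The part of S phase in the enzyme values was not tested.

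**Figure D4:**
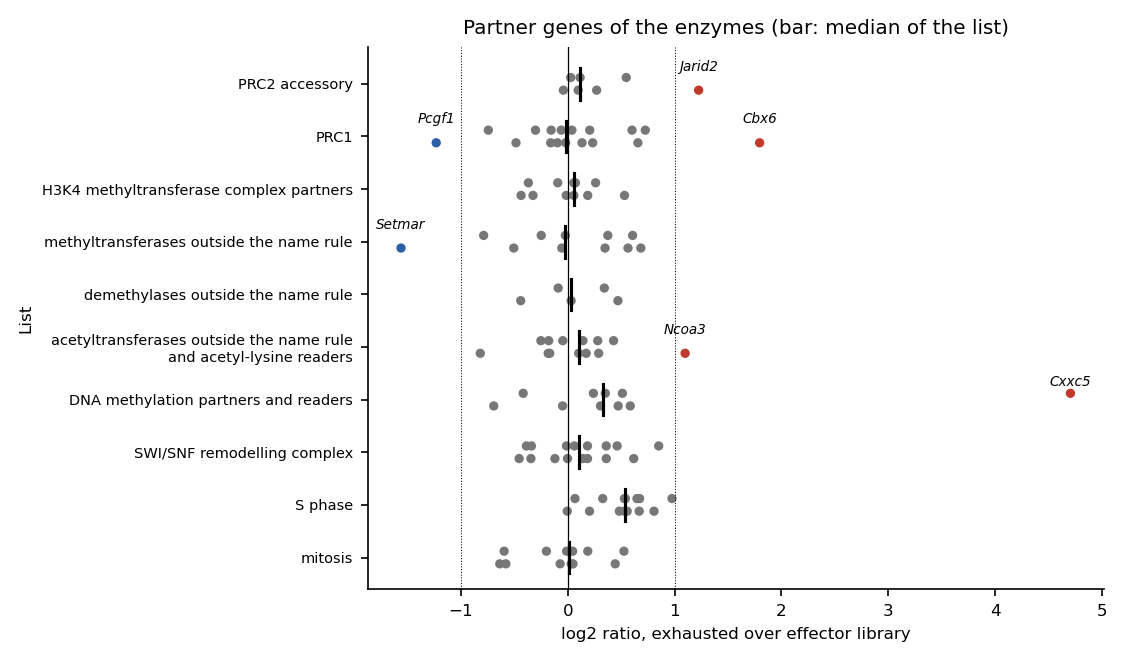
Log2 ratio of exhausted over effector (horizontal axis) of the measured genes in 10 partner lists (vertical axis), that of the corepressor complexes not drawn. Points are genes, bars are list medians, dotted lines mark 2-fold and called genes are named: Cxxc5 is farthest right at 4.70, and the S phase list has the highest median at 0.54.

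The lean of the enzymes towards higher values went along with gene length. In all measured genes the median log2 ratio rose from -0.08 up to 2000 bases to 0.37 above 10000 bases. The enzymes are long genes, with a median of 4401.5 bases against 3111. Of the 36 members over 5000 bases 31 were above equality, with a median of 0.36, where all 1884 genes of that length had 0.19. Of the 46 shorter members 22 were above equality, with a median of -0.03 against -0.04 for all 8115 such genes. The members' median was 0.06 after adjustment for length. Length and log2 ratio had a Spearman coefficient of 0.40 across the 82 members and 0.16 across all genes. For GC content, above 55% GC 16 of 17 members were above equality with a median of 0.44, against 0.05 for all genes in that range, but adjustment for GC content left the members' median at 0.17. Length and GC content were not tested as causes. The called genes lay at different lengths, Hdac7 at 4226 bases, Dnmt3b at 4320 and Tet1 at 14369.

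**Figure D5:**
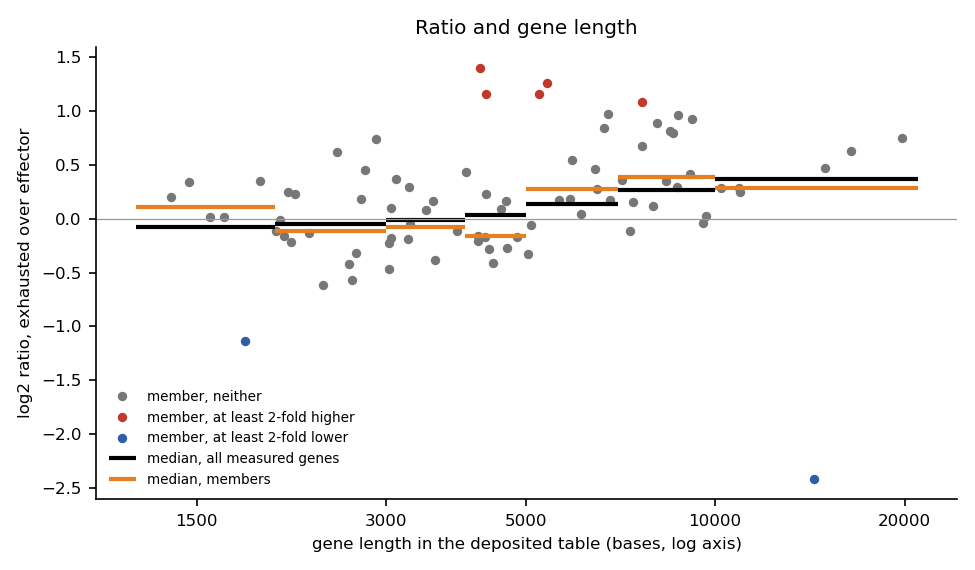
Log2 ratio of exhausted over effector (vertical axis) against gene length in bases (horizontal log axis) for the 82 measured enzymes. Black bars are medians of all measured genes in bins of length and orange bars those of the enzymes: both are above 0.1 in each bin over 5000 bases, and Tet1 lies far below its bin.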

How the data were processed

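RNA of sorted spleen TEa cells was sequenced in 2 libraries, 1 for each group. Trizol extraction and a low-input Takara kit for total RNA were used, per the labels. The authors deposited raw read counts per gene as whole numbers. Per the file headers, each deposited row also gives symbol, position, strand, length and type. STAR 2.6 and build mm10 are named in the submitters' processing notes. How reads were counted (program, strand setting, shared reads, annotation release) is not given in the sources used here, so reads of overlapping genes cannot be assigned by strand.

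Counts were divided by TMM effective library sizes (edgeR 4.0.16, R 4.3.3). A gene was measured with 50 or more reads in the libraries together. Ratios of exhausted to effector had exact Clopper-Pearson 95% intervals (scipy 1.17.1), and a call needed at least 2-fold and an interval excluding equality. With 1 library per group no p-value was computed. A floor of 3 reads stood for 0. The call rule was also run on simulated counts with counting error only. That run cannot check calls near 2-fold, as its changes were larger, nor variation between animals, which it left out. Classes were set by symbol. Both the members and the lists were chosen with earlier results of these data known.

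Genes named were every called member or partner, the member with the highest level in each class, the 5 largest and 5 smallest ratios and a list of 42 core members. Others, cell type markers included, were chosen after their values were seen, as were the promoter motifs. Some genes that the rule names are left out. Exon overlaps and GC content came from GENCODE M21. GC content was known for 81 of the 82 members and 99.7% of genes. Promoter windows came from RefSeq. The symbols Setd8, Suv420h1 and Suv420h2 are those of the table.

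Alternatives were size factors of DESeq2 1.42.0, scaling by total counts or the upper quartile, other read minimums (1 or 500), a call at 1.5-fold or wholly beyond 2-fold, protein-coding genes only, thinning of the deeper library, a prior count of 2, summed counts and, added after seeing the data, adjustment for gene length or GC content.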

Additional observations from a re-analysis of the deposited data

How the results depend on the processing

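The 5 higher and 2 lower members kept their count under the 3 other scalings, with protein-coding genes only, after thinning and with a prior count of 2. The members' median log2 ratio was 0.17 to 0.19 over the scalings. With at least 1 read, 6 were higher and 3 lower (5.86% and 6.21% of all genes). With at least 500 reads, 3 of 65 measured members were higher and 0 lower (3.97% and 4.3% of all genes). With the interval wholly beyond 2-fold, 2 were higher (Hdac7 and Hdac5) and 1 lower (Tet1), against 4.08% and 4.53% of all genes. At 1.5-fold, 17 were higher and 3 lower, where 13.7% of all genes were higher and 13.6% lower. The median moved to 0.061 after adjustment for gene length and was 0.17 adjusted for GC content and 0.24 as the ratio of summed counts. Partner lists with a median above equality were 10 of 12, and 5 after adjustment for length. Adjustment for length left 4 of 82 members higher and 2 lower, where 6.44% of all genes were higher and 7.09% lower. Adjustment for GC content left the same counts, where 6.62% of all genes were higher and 7.03% lower. Over the measured genes that the naming rule chose and the alternatives with a value for them, 662 values kept their side of the call rule. Of the others 14 lost the call, 8 gained it and none reversed. Genes under 500 reads had no value at that minimum, among them the called Tet1, Dnmt3b, Setd1b, Sirt4, Cxxc5, Pcgf1 and Setmar. Hdac9 and Hdac11, not measured in the main setting, were left out, with their calls at the minimum of 1 read. Leaving out a replicate is impossible with 1 library per group. No paired analysis was possible because each group has 1 library. Depth limits the genes under about 100 reads, such as Sirt4, Suv39h2 and Setd1a, whose intervals span over 2-fold from end to end.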
